A study of Mus musculus with 12 samples.

Results

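The mRNA decay machinery described here is a set of 44 mouse genes that encode the deadenylases, the decapping enzymes and their activators, the LSM ring, the XRN exonucleases and the RNA exosome. The genes were chosen by name for these functions, with earlier results of these data known, and were matched by symbol. All 44 were found among the 43629 genes counted, and all 44 passed the filter on low counts that left 13944 genes for testing. Their RNA was measured in pre-T cells sorted from the thymus of C57BL/6 mice, in 4 libraries labelled as biological replicates for each of 3 groups. Control DN3a and control DN3b cells carried floxed alleles of both genes, Zfp36l1fl/fl and Zfp36l2fl/fl, with no Cre named in their genotype. The DCKO group (double conditional knockout) held DN3-like cells that carried the same floxed alleles together with CD2cre, a recombinase driven by CD2 sequences and so active in lymphoid cells in general. DCKO cells were not divided into DN3a and DN3b, so they are set beside each control stage, and both of those comparisons use the same 4 DCKO libraries. No age was stated for the mice.

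An mRNA is usually destroyed from its ends. PAN2-PAN3 and then CCR4-NOT shorten the poly(A) tail, after which DCP2 removes the cap, helped by its partners and by the cytoplasmic LSM1-7 ring, and XRN1 degrades the body from the 5′ end. The exosome degrades RNA from the 3′ end in nucleus and cytoplasm. ZFP36L1 and ZFP36L2 are zinc finger proteins that bind AU-rich elements in 3′ untranslated regions and recruit CCR4-NOT. DN3a cells are mostly at rest, and cells that pass beta selection, the test for a working T cell receptor beta chain, become DN3b cells and start to divide.

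The labels held for the targeted genes. Zfp36l1 stood at 2.33 ± 1.01 CPM in DCKO, against 33.9 ± 7.15 in DN3a and 14.3 ± 6.13 in DN3b (CPM are counts scaled to a common library size, SD, n = 4), and Zfp36l2 at 63.9 ± 20.1, against 541 ± 145 and 364 ± 79.4. No DCKO library overlapped a control library for either gene. Libraries held 28479157 to 45975678 counts, of which the 44 members took 0.454% to 0.577%. The share of the nuclear RNA Malat1 was 0.0987% to 0.205% in DCKO and 0.0991% to 0.241% in DN3b, below its 0.583% to 0.841% in DN3a, and 1 feature took 9.02% of the counts of DCKO library 1. All 14 T lineage markers passed the filter. Summed over each list, markers of other cells gave 46.1 to 61.1 CPM (DN3a), 10.9 to 34.1 (DN3b) and 20.5 to 25.4 (DCKO) for 8 B cell genes, of which 3 passed the filter. For 12 myeloid and dendritic genes (3 passed) the sums were 20.5 to 31.6, 1.46 to 10.4 and 8.10 to 24.2 in the same order, and for 8 erythroid and platelet genes (5 passed) 8.19 to 26.0, 2.83 to 29.3 and 4.06 to 17.3. The 9 gamma-delta T and NK genes (4 passed) summed higher, to 188 to 314, 439 to 607 and 300.0 to 512 CPM. Most of that was Gzma, at 97.6 to 213, 376 to 569 and 260 to 461 CPM, while the NK cell receptor gene Ncr1 had 6 counts in the 12 libraries together. The 10 thymic stroma genes (5 passed, Pdgfra at 0 in every library) summed to 195 to 270, 83.0 to 165 and 90.5 to 154 CPM, nearly all from Epcam and Pecam1, while Foxn1, the regulator of thymic epithelium, had 6 counts in all. The B cell, myeloid and stroma sums were thus higher in DN3a than in DN3b, and the sum led by Gzma was lower in DN3a than in DN3b. The part of these shifts in the results below was not tested.

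Most of the decay machinery was higher after beta selection. Between DN3b and DN3a 25 members were higher and 5 lower at an adjusted p under 0.05 (edgeR quasi-likelihood test, Benjamini-Hochberg adjustment over all genes tested), and 14 passed in neither direction. The background was high: 52.6% of all genes tested passed, 27.4% as higher and 25.2% as lower. The members' median log2 fold change was 0.37, against -0.022 over all genes tested. Between DCKO and DN3a 28 members were higher and 5 lower, where 60.2% of all genes passed (30.7% higher, 29.5% lower), with medians of 0.40 for the members and -0.041 for all genes. Between DCKO and DN3b only 3 members were higher and 1 lower, a share below the 18.9% of all genes that passed (10.3% higher, 8.58% lower). With upper quartile scaling the median of all genes moved to -0.167, -0.264 and -0.101 in the 3 comparisons, and the members split into 19 higher and 7 lower, 19 and 8, and 3 and 3. Over all genes the splits moved from 3815 higher and 3519 lower to 3021 and 4536, from 4275 and 4116 to 3119 and 5528, and from 1438 and 1197 to 1051 and 1644. In bulk libraries fewer cells that express a gene and less RNA per cell cannot be told apart.

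**Figure D1:**
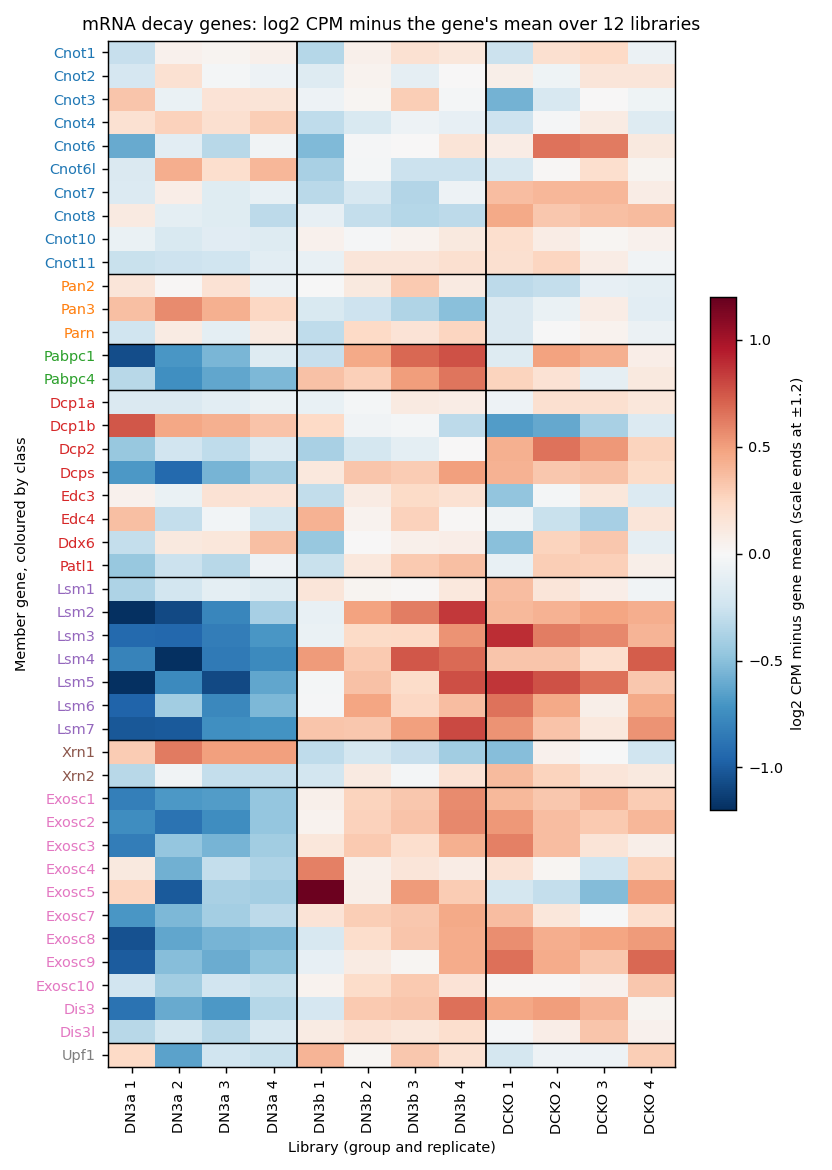
Colour gives the log2 CPM of each of the 44 members (rows, label colour by class) minus that gene's mean over the 12 libraries (columns, by group and replicate), with the scale ended at 1.2 on each side. The LSM ring and most of the exosome were below their means in the DN3a libraries and above them in most DN3b and DCKO libraries, while Pan3 and Xrn1 ran the other way.

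**Figure D2:**
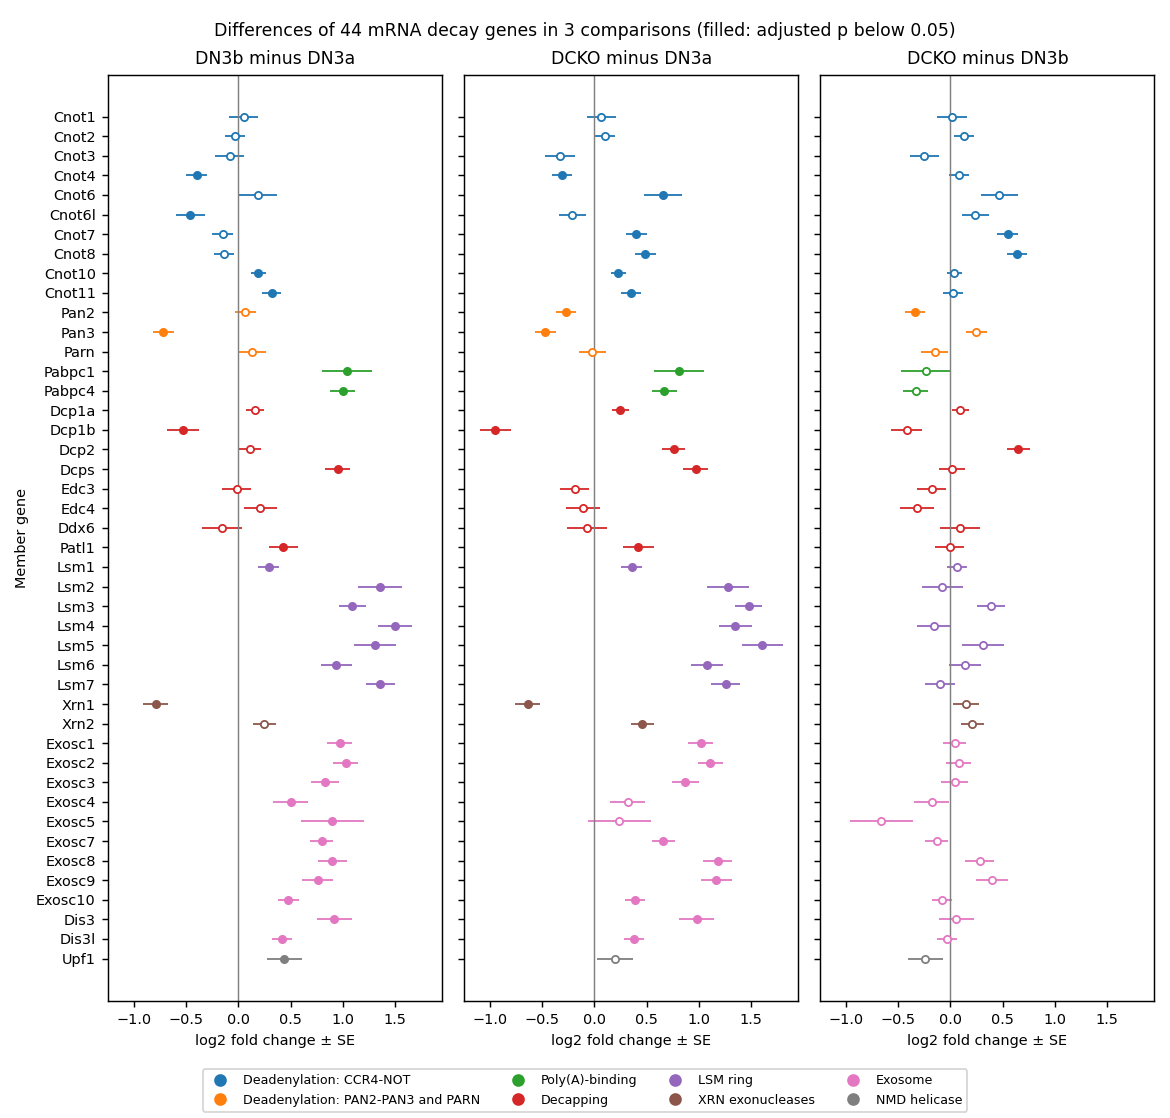
Log2 fold change with its standard error for each member in 3 comparisons (x axis, log2 units), coloured by class, with filled points at an adjusted p under 0.05. Filled points number 30, 33 and 4 from left to right, and the 4 on the right are Cnot7, Cnot8, Pan2 and Dcp2.

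CCR4-NOT is the main deadenylase complex. Its 10 members did not move as a block between the control stages: Cnot10 and Cnot11 were higher in DN3b, Cnot4 and Cnot6l were lower, and 6 did not pass. Over all genes tested 27.4% were higher and 25.2% lower in that comparison, so these counts do not set the class apart. The scaffold gene Cnot1 stood at 578 ± 61.6, 598 ± 91.7 and 605 ± 95.4 CPM in DN3a, DN3b and DCKO, and passed in no comparison. Cnot2, which encodes a subunit of the NOT module, stood at 279 ± 31.6, 274 ± 17.7 and 299 ± 19.2 CPM and passed in none either. Its partner in that module, Cnot3, was at 45.0 ± 5.15, 42.4 ± 5.09 and 35.7 ± 5.96 CPM, with a log2 difference of -0.33 ± 0.14 (SE) between DCKO and DN3a that missed the threshold (adjusted p = 0.0514) and passed in 10 of 20 alternative settings, among them upper quartile scaling (-0.55, 0.00383). Cnot10 and Cnot11 encode a pair of subunits that dock on the scaffold. Cnot11 read 57.4, 58.2, 58.7 and 63.3 CPM in DN3a libraries 1 to 4, 64.8, 76.5, 76.4 and 78.8 in DN3b, and 79.0, 82.5, 73.5 and 67.1 in DCKO. Every DN3b and DCKO library thus lay above every DN3a library, with log2 differences of 0.32 ± 0.093 (adjusted p = 0.0114) and 0.35 ± 0.093 (0.006). Cnot10 showed smaller differences of 0.19 ± 0.074 (0.0441) and 0.23 ± 0.074 (0.0163). With upper quartile scaling neither gene passed in either comparison. The DN3b call of Cnot10 was lost without any 1 of the 8 control libraries or DCKO library 2 or 3, and its DCKO call without DCKO library 1 or 2. Cnot4 encodes a RING-type ubiquitin ligase associated with the complex, and was lower in DN3b (-0.40 ± 0.098, adjusted p = 0.00452) and in DCKO (-0.31 ± 0.098, 0.0144) than in DN3a. Without DCKO libraries 1 and 2 together, the DCKO calls against DN3a of Cnot4 (-0.28, adjusted p = 0.084), Cnot10 (0.16, 0.18) and Cnot11 (0.23, 0.118) were lost.

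The catalytic subunit genes Cnot7 and Cnot8 were, with Dcp2 and Pan2 outside CCR4-NOT, the members called between DCKO and both controls. Cnot7 and Cnot8 encode the CAF1-type deadenylases, of which a complex holds 1 at a time. Cnot8 (GRCm38 chromosome 11, 58104153 to 58118594, plus strand) read 172, 147, 144 and 128 CPM in DN3a, 149, 131, 126 and 128 in DN3b, and 218, 199, 205 and 208 in DCKO. The lowest DCKO library was above the highest control library, and DCKO was 1.55-fold above DN3b (log2 0.64 ± 0.097, adjusted p = 0.000847) and 1.41-fold above DN3a (0.49 ± 0.097, 0.00079). Cnot7 (chromosome 8, 40492540 to 40515847, minus strand) read 101, 119, 102 and 106 CPM in DN3a, 90, 98.7, 88.7 and 108 in DN3b, and 146, 149, 149 and 120 in DCKO. Here DCKO library 4 lay just above the highest DN3a library, so that no libraries overlapped. DCKO was 1.47-fold above DN3b (0.55 ± 0.10, 0.00241) and 1.32-fold above DN3a (0.40 ± 0.10, 0.00385). With upper quartile scaling the Cnot7 call against DN3a was lost (0.17, adjusted p = 0.154), and that of Cnot8 was kept at a smaller difference (0.27, 0.0315). Neither gene passed between DN3b and DN3a (-0.14 ± 0.097 for Cnot8 and -0.15 ± 0.099 for Cnot7), except with upper quartile scaling, where both were lower in DN3b (-0.29 and -0.30, adjusted p = 0.025 and 0.0245). Without DCKO libraries 1 and 2 Cnot8 stayed past the threshold against both controls, at 0.63 against DN3b (0.0175) and 0.46 against DN3a (0.0136), while Cnot7 did not (0.48 and 0.31, adjusted p = 0.0515 and 0.0708).

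The other catalytic pair, Cnot6 and Cnot6l, encodes the CCR4-type deadenylases. Cnot6 read 178, 247, 214 and 262 CPM in DN3a, 187, 267, 270 and 301 in DN3b, and 287, 425, 417 and 293 in DCKO. All DCKO libraries lay above DN3a (log2 0.66 ± 0.18, adjusted p = 0.0065), but they overlapped DN3b (0.47 ± 0.18, 0.0829). Cnot6l moved in the other direction between the controls, from 209 ± 37.3 CPM in DN3a to 153 ± 16.4 in DN3b (-0.46 ± 0.14, 0.0127), and stood at 181 ± 20.1 in DCKO, which passed against neither, though against DN3a it did with upper quartile scaling (-0.44, 0.0164). DN3a library 1, at 158 CPM, overlapped the DN3b libraries.

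Short AU-rich sequences were looked up in the 3′ untranslated regions because the missing proteins bind them, and this search was added after the members' values had been seen. The letters TATTTAT, read on the transcript strand, occurred in 12 of 44 members (27.3%) and in 29.8% of the 11683 tested genes with an annotated 3′ untranslated region. CCR4-NOT held them in 5 of 10 members and the exosome in 0 of 11. The median length of these regions was 1171 bases in CCR4-NOT and 345 in the exosome, and of 1172 over all tested genes. The sites of Cnot7, Cnot8 and Cnot6 are shown because these were the CCR4-NOT genes with the letters that were called higher in DCKO than in DN3a. Letters come from the GRCm38 genome with GENCODE M21 transcripts, the capitals mark the searched letters, and the windows lie at chr8:40493115-40493143 (minus strand) for Cnot7, chr11:58118537-58118565 (plus strand) for Cnot8, and chr11:49672369-49672397 and chr11:49671566-49671594 (minus strand) for Cnot6.
Cnot7 site: ttttataaacaTATTTATgatgttcttga
Cnot8 site: cttgtaaatatTATTTATgtttttaattt
Cnot6 first site: ttggtggtaatTATTTATgctttgagaat
Cnot6 last site: agctagtattaTATTTATatacagggtct
The Cnot7 site began 855 bases after the stop codon and the Cnot8 site 960 bases after it. A match is common at these lengths: 32.2% of genes with a region within 20% of the length of Cnot7 held one, as did 23.8% for Cnot8, 56.6% for Cnot6 and 73.2% for Dcp2. Cnot6l held 3 matches, Cnot3, Pan3, Dcp1a, Dcp1b, Edc3, Lsm6 and Xrn1 held 1 each, and Dcp2 held 2. Of these 12 members 6 were called higher in DCKO than in DN3a (Cnot6, Cnot7, Cnot8, Dcp1a, Dcp2 and Lsm6), 3 lower (Pan3, Dcp1b and Xrn1) and 3 neither. Of the 32 members without the letters 22 were higher and 2 lower. Over all genes tested 30.7% were higher and 29.5% lower in that comparison. Between DCKO and DN3b 3 of the 12 were higher (Cnot7, Cnot8 and Dcp2) and 0 lower. Of the 32 without the letters 0 were higher and 1 lower (Pan2), against 10.3% and 8.58% of all genes. The share called among all tested genes with the letters was not computed, so these counts lack a matched background. The part of the letters in these differences was not tested.

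The PAN deadenylase trims the tail before CCR4-NOT does. Pan3, its adaptor subunit, read 357, 411, 373 and 330 CPM in DN3a, 245, 234, 216 and 196 in DN3b, and 246, 263, 296 and 255 in DCKO. All DN3b and DCKO libraries lay below all DN3a libraries, with log2 differences of -0.72 ± 0.10 (adjusted p = 0.000139) and -0.47 ± 0.10 (0.00154). Pan2, the catalytic subunit, read 61.0, 55.8, 62.2 and 52.6 CPM in DN3a, 55.0, 59.8, 68.5 and 59.5 in DN3b, and 44.3, 45.3, 51.5 and 50.8 in DCKO. It was the only member called lower in DCKO than in DN3b (-0.34 ± 0.098, 0.0292), and was lower than in DN3a as well (-0.27 ± 0.098, 0.0287). Both Pan2 calls were lost with no filter and without DCKO library 1 or 2, the call against DN3a also without DN3a library 1 or 3, and the call against DN3b also without DN3b library 2 or 3. Parn, a poly(A)-specific ribonuclease with many noncoding targets, stood at 49.4 ± 5.71, 54.2 ± 9.13 and 48.8 ± 3.06 CPM and passed in no comparison.

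The poly(A)-binding proteins coat the tail that the deadenylases remove. Pabpc1 read 210, 270, 300 and 394 CPM in DN3a, 361, 600, 706 and 745 in DN3b, and 393, 614, 588 and 462 in DCKO. Its spread was wide, and DN3a library 4 overlapped library 1 of both other groups. The gene was 2.05-fold higher in DN3b (log2 1.04 ± 0.24, adjusted p = 0.00288) and 1.75-fold higher in DCKO (0.81 ± 0.24, 0.00986) than in DN3a. Pabpc4, the paralog first described in activated T cells, was higher without overlap, at 92.6 ± 11.2 CPM in DN3a, rising to 186 ± 21 in DN3b (1 ± 0.12, 4.74e-05) and 147 ± 15.8 in DCKO (0.67 ± 0.12, 0.000317). DCKO lay below DN3b in Pabpc4 without overlap, but the difference did not pass (-0.33 ± 0.12, 0.0626), except in 3 of 20 alternative settings, upper quartile scaling among them (-0.41, 0.0209).

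Decapping genes went in both directions. Dcp2, the decapping enzyme, read 146, 170, 162 and 178 CPM in DN3a, 152, 173, 184 and 200 in DN3b, and 269, 313, 287 and 240 in DCKO. The control stages overlapped (0.11 ± 0.11, adjusted p = 0.41), and all DCKO libraries lay above all controls, by 0.76 ± 0.11 against DN3a (8.67e-05) and 0.65 ± 0.11 against DN3b (0.00168). These calls remained without DCKO libraries 1 and 2, at 0.67 (0.00273) and 0.57 (0.0307). Dcp1b, an activating partner of DCP2, was ordered the other way: 36.0 ± 4.51 CPM in DN3a, down to 25 ± 3.91 in DN3b (-0.53 ± 0.15, 0.00949) and 18.7 ± 3.06 in DCKO (-0.95 ± 0.15, 0.000159). Between DCKO and DN3b Dcp1b overlapped and did not pass (-0.42 ± 0.15, adjusted p = 0.0661), except in 4 of 20 alternative settings. Its paralog Dcp1a stood at 73.3 ± 2.18, 81.8 ± 5.33 and 87.4 ± 6.97 CPM, and passed for DCKO against DN3a (0.25 ± 0.084, 0.0192), though not with upper quartile scaling or without DCKO library 2 or 3. Dcps, which clears the cap left over from 3′ decay, read 33.2, 28.2, 36.5 and 40.5 CPM in DN3a, 58.5, 67.6, 66.4 and 75.5 in DN3b, and 71.9, 67.3, 68.6 and 63.0 in DCKO. It was 1.94-fold higher in DN3b (0.95 ± 0.12, 6.06e-05) and 1.96-fold higher in DCKO (0.97 ± 0.12, 2.42e-05) than in DN3a.

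The scaffolds and activators of decapping showed little. Patl1, which bridges the LSM1-7 ring and the decapping enzyme, was at 36.9 ± 4.26 CPM in DN3a, rising to 49.5 ± 9.12 in DN3b (0.43 ± 0.14, adjusted p = 0.0255) and 49.2 ± 6.22 in DCKO (0.42 ± 0.15, 0.0243), with overlapping libraries. Both Patl1 calls were lost with upper quartile scaling, without DN3a library 1 and without DN3a library 3. The first was also lost without DN3b library 3 or 4, and the other without DCKO library 2 or 3 or with the stricter filter. The helicase gene Ddx6 stood at 275 ± 48.2, 246 ± 39.6 and 262 ± 64.9 CPM, and the scaffold gene Edc4 at 103 ± 22.1, 119 ± 16.2 and 95.2 ± 15.7. Neither passed in any comparison without pairing. With the replicate number as a block, which pairs the control libraries, Ddx6 was lower (-0.18, 0.0229) and Edc4 higher (0.20, 0.0308) in DN3b than in DN3a. Edc3, an enhancer of decapping, stood at 36.7 ± 2.91, 36.3 ± 5.60 and 32.1 ± 5.57 CPM and passed in none, except that it was lower in DCKO than in DN3a with upper quartile scaling (-0.41, 0.0245). Exons of Clk3 on the other strand cover 22.1% of its exon bases, so its count may hold reads of Clk3.

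The XRN exonucleases moved apart. Xrn1, the cytoplasmic enzyme that finishes decay after decapping, read 149, 186, 169 and 169 CPM in DN3a, 97.6, 104, 99.3 and 89.9 in DN3b, and 84.6, 125, 120 and 102 in DCKO. It was 1.72-fold lower in DN3b (-0.79 ± 0.12 on the log2 scale, adjusted p = 0.00022) and 1.55-fold lower in DCKO (-0.64 ± 0.12, 0.000585) than in DN3a, with no overlap. Xrn2, its nuclear relative that also acts in transcription termination, read 189, 232, 195 and 195 CPM in DN3a, 204, 257, 235 and 268 in DN3b, and 311, 287, 264 and 258 in DCKO. DCKO was higher than DN3a (0.46 ± 0.11, 0.0025), a call lost with upper quartile scaling (0.24, 0.0811) and without DCKO libraries 1 and 2 (0.34, 0.0573). The rise in DN3b missed the threshold (0.25 ± 0.11, 0.067) and passed with the control libraries paired (0.22, 0.0369).

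**Figure D3:**
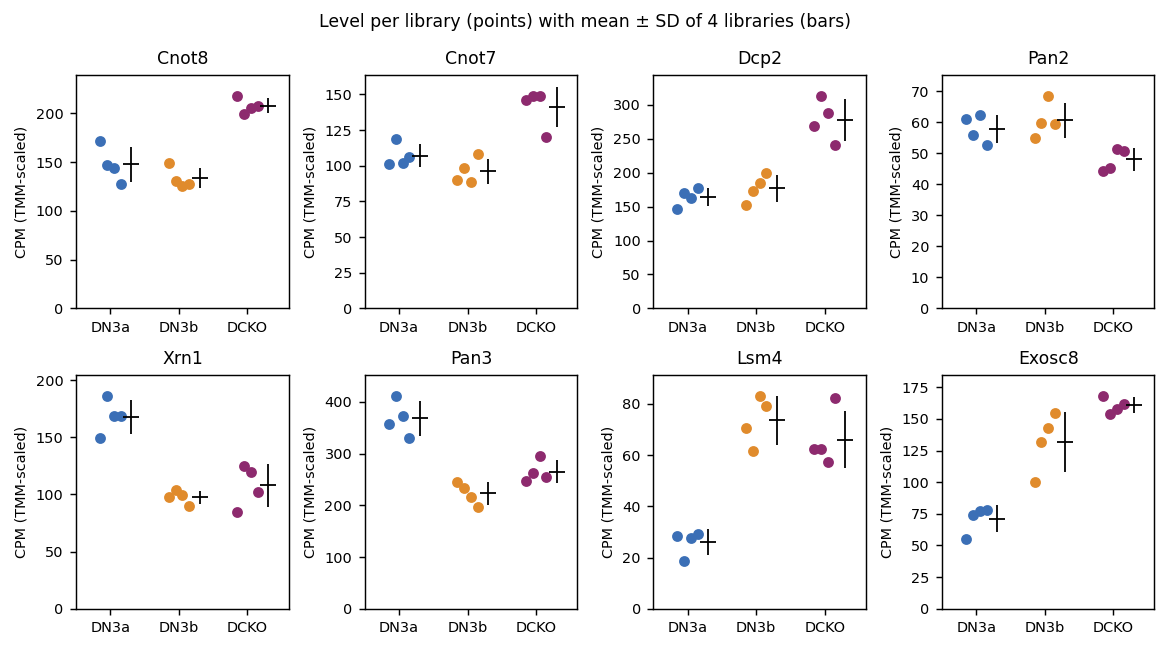
CPM of 8 members in each library (points) with the mean and SD of the 4 libraries (bars), y axes from 0. Cnot8, Cnot7 and Dcp2 were highest in DCKO and close in the 2 control stages, Pan2 was lowest in DCKO, Xrn1 and Pan3 were highest in DN3a, and Lsm4 and Exosc8 were lowest in DN3a.

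The LSM ring was the class with the largest differences between the stages. LSM1 to LSM7 form the cytoplasmic ring that binds shortened tails and promotes decapping, and LSM2 to LSM7 also form, with LSM8, the nuclear ring on U6 RNA. All 7 members were higher in DN3b than in DN3a and all 7 were higher in DCKO than in DN3a, with medians of 1.31 and 1.28, and 0 of 7 passed between DCKO and DN3b. Over all genes tested 27.4% and 30.7% were higher in the first 2 comparisons, and 18.9% passed between DCKO and DN3b. With upper quartile scaling all 7 kept a positive difference in the first 2 comparisons, but Lsm1 no longer passed. Lsm4 read 28.4, 18.6, 27.6 and 29.3 CPM in DN3a, 70.6, 61.6, 83.0 and 79.3 in DN3b, and 62.5, 62.4, 57.2 and 82.1 in DCKO, so that DN3b was 2.84-fold (1.5 ± 0.16, adjusted p = 3.63e-05) and DCKO 2.54-fold (1.35 ± 0.16, 2.27e-05) above DN3a. Lsm5 read 11.6, 18.8, 15 and 20.6 CPM in DN3a, 31.4, 40.5, 37.0 and 54.4 in DN3b, and 57.7, 54.1, 50.5 and 39.9 in DCKO, where it was 3.06-fold above DN3a (1.61 ± 0.20, 3.19e-05), the largest difference of any member. Lsm2, Lsm3, Lsm6 and Lsm7 were 1.91-fold to 2.57-fold higher in DN3b and 2.12-fold to 2.79-fold higher in DCKO. Lsm1, the subunit that belongs only to the cytoplasmic ring, showed the smallest difference of the class: 28.3 ± 2.06 CPM in DN3a, then 34.6 ± 1.5 in DN3b (0.29 ± 0.10, 0.0317) and 36.2 ± 4.38 in DCKO (0.36 ± 0.10, 0.0101). No Lsm1 library of DN3b or DCKO overlapped DN3a. The DN3b call held in 12 of 20 alternative settings and was lost without DN3a library 1 or 2 or DN3b library 1, 2 or 4. The DCKO call of Lsm1 against DN3a held in 17 of 20.

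The exosome was higher as a class after beta selection. All 11 members were higher in DN3b than in DN3a, with a median of 0.83 and a range from 0.42 to 1.03, and 9 were higher in DCKO than in DN3a. None of the 11 passed between DCKO and DN3b. Of all genes tested 27.4% were higher in DN3b and 30.7% in DCKO than in DN3a, and 18.9% passed between DCKO and DN3b. Exosc2 and Exosc3, whose products form with EXOSC1 the RNA-binding cap of the complex, stood at 61.3 ± 7.77 and 31.9 ± 3.87 CPM in DN3a, and were 2.04-fold (log2 1.03 ± 0.12, adjusted p = 4.91e-05) and 1.78-fold (0.83 ± 0.13, 0.000283) higher in DN3b. An antisense gene covers 12.4% of the exon bases of Exosc2. Exosc1 read 19.6, 21.5, 21.8 and 25.1 CPM in DN3a, 36.2, 41.8, 43.3 and 51.4 in DN3b, and 45.4, 43.4, 46.0 and 42.9 in DCKO, again with no overlap with DN3a (0.97 ± 0.12 and 1.02 ± 0.12).

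Of the ring subunits, Exosc8 read 55.1, 74.0, 77.2 and 78.3 CPM in DN3a, 99.8, 132, 143 and 155 in DN3b, and 168, 154, 158 and 162 in DCKO. It was the exosome member with the largest difference in DCKO (2.26-fold against DN3a, log2 1.18 ± 0.14, adjusted p = 2.15e-05). Exosc9 was close to it in DCKO (1.17 ± 0.15, 3.3e-05) and 0.76 ± 0.15 in DN3b (0.000932), but exons of the cyclin gene Ccna2 on the other strand cover 10.8% of its exon bases. Exosc7 rose by 0.80 ± 0.11 in DN3b and 0.66 ± 0.11 in DCKO. The 2 members that did not pass in DCKO against DN3a were Exosc4 (0.32 ± 0.17, adjusted p = 0.117) and Exosc5 (0.24 ± 0.30, 0.501). Exosc5 had a wide spread within groups, with 37.5, 15.6, 23.9 and 23.6 CPM in DN3a, values of 70.8, 33.0, 44.7 and 38.8 in DN3b, and 27.0, 25.7, 21.8 and 44.2 in DCKO. Library 1 was the highest in both control groups for Exosc5 and for Exosc4, whose DN3b values were 44.1, 30.3, 32.2 and 30.9 CPM. In DN3b both genes lost their calls without DN3b library 1, DN3a library 2 or DN3a library 3, and Exosc4 also without DN3a library 4, with upper quartile scaling or with the stricter filter. With the control libraries paired by a replicate block both passed in DN3b, Exosc5 at 0.88 (adjusted p = 4.15e-05) and Exosc4 at 0.48 (0.000604). Exons of Oplah on the other strand cover 19.8% of the exon bases of Exosc4.

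The nucleases of the exosome rose less evenly. Dis3, the catalytic subunit of the nuclear complex, read 57.1, 69.2, 65.4 and 83.2 CPM in DN3a, 91.6, 131, 133 and 166 in DN3b, and 145, 149, 140 and 108 in DCKO. It was 1.90-fold higher in DN3b (log2 0.92 ± 0.17, adjusted p = 0.000761) and 1.97-fold higher in DCKO (0.98 ± 0.17, 0.000341). Its cytoplasmic paralog Dis3l was 28.0 ± 1.44 CPM in DN3a and rose to 37.3 ± 1.08 in DN3b (0.42 ± 0.096, 0.00309) and 36.4 ± 4.04 in DCKO (0.38 ± 0.096, 0.00417). Exosc10, a further nuclear 3′ exonuclease, was 112 ± 6.68, 156 ± 12.4 (0.48 ± 0.097, 0.00135) and 147 ± 16.3 CPM (0.39 ± 0.097, 0.00345). The DCKO calls of Dis3l and Exosc10 were lost with upper quartile scaling. Upf1, the helicase of nonsense-mediated decay, was the remaining member: 137 ± 34.8 CPM in DN3a, up to 186 ± 21.4 in DN3b (0.44 ± 0.17, 0.0418) and 158 ± 24.7 in DCKO (0.20 ± 0.17, 0.313). Its DN3b call held in 7 of 20 alternative settings, and was lost when any of DN3a libraries 2 to 4, DN3b libraries 1, 3 and 4, or DCKO libraries 1 to 3 was left out. With the replicate number as a block, which pairs the control libraries, Upf1 passed at a lower adjusted p (0.44, 0.00281).

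Member promoters of every class were searched for 3 motifs chosen by name. These were the E-box CACGTG bound by MYC and MAX, an ETS core CCGGAAG, and GCGGGAA, the core of many E2F sites. Both strands were read in windows of 300 bases, from 250 before to 50 after the start site, as RefSeq gives them on GRCm38.p6. Of the 44 members 35 matched an entry, and a gene with several start sites was counted once. The ETS core stood in 12 of the 35 members, against 2049 of the 9779 tested genes with a promoter. By class the core stood in 1 of 5 LSM genes and 3 of 9 exosome genes. It also stood in 3 of 6 decapping genes, 3 of 8 CCR4-NOT genes, 1 of 3 PAN and PARN genes and 1 of 2 XRN genes. Neither Pabpc4 nor Upf1 held it. The E-box stood in 3 of 35 members (8.57%, against 11.7% of tested genes), and the E2F core in 5 (14.3%, against 9.91%). No test was run, and a match shows no binding. Lsm5 was the only LSM gene searched that held the ETS core. Capitals below mark this core on either strand and, in Dis3, also the E2F core. The promoters of Lsm5, Exosc3 and Dis3 are printed because they hold a match, not as typical of their classes. They lie at chr6:56704650-56704949, chr4:45320567-45320866 and chr14:99099721-99100020, all on the minus strand, and read 5′ to 3′ in the direction of transcription.
Lsm5 promoter: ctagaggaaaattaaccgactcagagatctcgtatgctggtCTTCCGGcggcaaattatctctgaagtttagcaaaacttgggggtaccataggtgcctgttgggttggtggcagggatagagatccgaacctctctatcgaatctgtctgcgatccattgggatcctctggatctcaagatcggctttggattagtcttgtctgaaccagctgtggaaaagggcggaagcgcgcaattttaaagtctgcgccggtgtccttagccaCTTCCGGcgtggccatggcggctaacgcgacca
Exosc3 promoter: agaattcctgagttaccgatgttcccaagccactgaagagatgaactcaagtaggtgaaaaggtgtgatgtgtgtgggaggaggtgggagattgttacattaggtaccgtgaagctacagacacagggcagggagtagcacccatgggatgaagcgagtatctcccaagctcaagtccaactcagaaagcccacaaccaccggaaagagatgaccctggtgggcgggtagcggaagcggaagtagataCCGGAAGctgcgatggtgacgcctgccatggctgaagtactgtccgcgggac
Dis3 promoter: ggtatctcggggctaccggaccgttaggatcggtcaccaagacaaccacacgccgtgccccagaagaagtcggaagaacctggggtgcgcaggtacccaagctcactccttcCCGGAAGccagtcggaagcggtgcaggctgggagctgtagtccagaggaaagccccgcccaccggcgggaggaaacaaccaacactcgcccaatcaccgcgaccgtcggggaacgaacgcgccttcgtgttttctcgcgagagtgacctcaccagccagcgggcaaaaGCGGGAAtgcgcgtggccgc
Lsm5, the member with the largest difference between DCKO and DN3a, held 2 ETS cores, both on the opposite strand. Exosc3 held 1 ETS core, and Dis3 held 1 ETS core and 1 E2F core, the E2F core inside the last 50 bases of the window.

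The balance of paralogs within a class was compared within libraries. A ratio within a library does not depend on how libraries are scaled, so log2 ratios of counts were compared for 5 pairs, in 15 comparisons in all, with an exact two-sided permutation test of 4 against 4 libraries. The smallest p this design allows is 0.0286, and after adjustment over the 15 the smallest was 0.0857, so none passed 0.05. Cnot6l and Cnot6 were nearly level in DN3a (log2 ratio -0.11 ± 0.064, SD), and Cnot6l was the lower of the pair in DN3b (-0.73 ± 0.25) and DCKO (-0.96 ± 0.23). No DN3b or DCKO library overlapped DN3a in this ratio (exact p = 0.0286 each). Dcp1b to Dcp1a ran at -1.03 ± 0.21 in DN3a, -1.72 ± 0.30 in DN3b and -2.24 ± 0.21 in DCKO, with no overlap against DN3a (exact p = 0.0286 each) and overlapping libraries between DCKO and DN3b (exact p = 0.0571). For Dis3l to Dis3 the ratio was -1.28 ± 0.17, -1.77 ± 0.32 and -1.89 ± 0.25, without overlap for DCKO against DN3a (exact p = 0.0286). Between same-numbered control libraries these 3 ratios were lower in DN3b in 4 of 4 pairs each, by a mean of -0.62 ± 0.26 (SD), -0.69 ± 0.10 and -0.49 ± 0.16 for DN3b minus DN3a. An exact sign-flip test over 4 pairs, added after the values were seen, cannot go below p = 0.125, which all 3 gave. Cnot8 to Cnot7 stood at 0.46 ± 0.23, 0.47 ± 0.20 and 0.56 ± 0.16, and Pabpc4 to Pabpc1 at -1.64 ± 0.47, -1.65 ± 0.39 and -1.79 ± 0.42, all overlapping between groups. The CAF1 pair and the poly(A)-binding pair therefore differed between groups by less than their spread in this ratio, while each gene of both pairs was higher in DCKO than in DN3a.

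**Figure D4:**
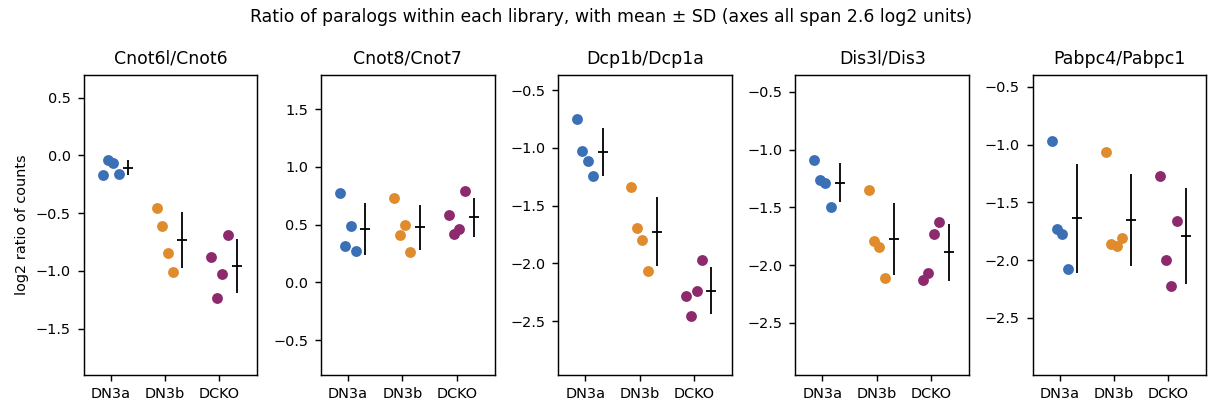
Log2 ratio of the counts of 2 paralogs within each library (points) with mean and SD of 4 libraries (bars), all y axes spanning the same number of log2 units. Cnot6l/Cnot6, Dcp1b/Dcp1a and Dis3l/Dis3 were highest in DN3a, and Cnot8/Cnot7 and Pabpc4/Pabpc1 overlapped in all 3 groups.

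Levels can be compared between genes only per length. In RPKM, here CPM divided by the kilobases of a gene's merged exons, the highest means in DN3a were Cnot2 at 68.6 ± 7.74, Cnot8 at 56.0 ± 6.82, Xrn2 at 50.9 ± 4.92 and Pabpc1 at 44.9 ± 11.7. Neighbours in that order differed by less than their summed SDs. In DN3b the order began with Pabpc1 at 92.2 ± 26.4 and Lsm4 at 70.9 ± 9.21, and in DCKO with Cnot8 at 78.8 ± 2.97 and Pabpc1 at 78.7 ± 16.0, which cannot be ranked. The lowest in DCKO was Dcp1b at 2.94 ± 0.483 RPKM. Divided by the longest annotated transcript in place of the merged exons, Pabpc1 came first in all 3 groups (101, 207 and 176), so the order at the top depends on the gene model.

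Differences and transcript length moved together among the members. Across the 44 genes the Spearman correlation of the longest transcript's length with the log2 fold change was -0.68 for DN3b against DN3a and -0.68 for DCKO against DN3a, as a description over genes that share the same libraries, and 0.025 for DCKO against DN3b. Over 13825 tested genes with a length it was -0.11, -0.068 and 0.057. The LSM ring spans 757 to 3792 bases, with 4 of its 7 members among the 3459 shortest tested genes, and the exosome 1077 to 5150. Those 3459 genes, of up to 1890 bases, had a median log2 difference of 0.083 between DN3b and DN3a, and the 3456 longest had -0.16. The 7 members among the 3459 shortest had a median of 1.31. The part of length in these results was not tested.

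**Figure D5:**
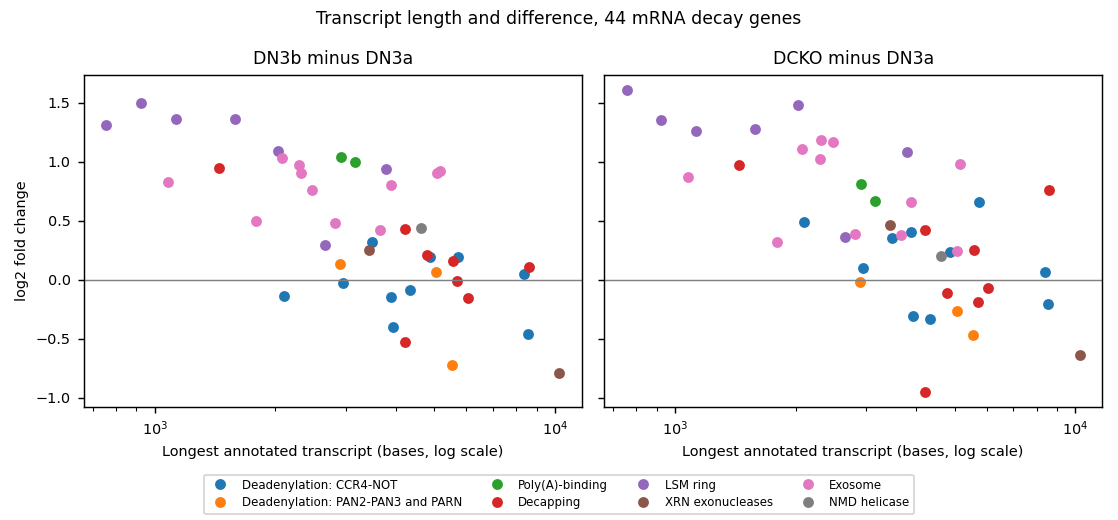
Length of the longest annotated transcript (x axis, bases, log scale) against the log2 fold change (y axis) of the 44 members in 2 comparisons with DN3a, coloured by class. The short LSM genes lie at the upper left and Xrn1, the longest at 10256 bases, at the lower right of both panels.

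Lists of cell cycle and ribosome biogenesis genes moved beside the members. All 20 cell cycle genes and all 20 ribosome biogenesis genes listed were higher in DN3b and in DCKO than in DN3a, with medians of 2.1 and 0.98 in DN3b and of 2.28 (cell cycle) and 1.12 (ribosome biogenesis) in DCKO. Between DCKO and DN3b 1 of each 20 passed, as higher, where 10.3% of all genes tested were higher. The cell cycle list summed to 1830 to 4050 CPM (DN3a), 6380 to 10800 (DN3b) and 9790 to 10700 (DCKO). The LSM ring summed to 179 to 233, 367 to 517 and 441 to 533 CPM, and the exosome to 484 to 556, 773 to 978 and 858 to 942, so all 3 lists separated DN3a from the other groups and overlapped between DN3b and DCKO. The part of the cell cycle in the members' differences was not tested.

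Around the core machinery, 82 further decay genes were listed in 5 groups, of which 79 could be tested. Between DN3b and DN3a 30 were higher and 29 lower, with a median of 0.17, so that 74.7% were called against 52.6% of all genes tested. Between DCKO and DN3a the counts were 34 and 27 (77.2%, against 60.2%), and between DCKO and DN3b 15 and 4 (24.1%, against 18.9%). The adaptors that bring deadenylases to mRNA were mostly lower than in DN3a. Of 20 tested, 12 fell and 1 rose in DN3b, and 11 fell and 6 rose in DCKO. Over all genes tested 25.2% were lower and 27.4% higher in DN3b, and 29.5% and 30.7% in DCKO. Between DCKO and DN3b 5 of the 20 adaptors were higher and 0 lower, against 10.3% and 8.58% of all genes. Btg1, an antiproliferative protein that binds CAF1, was 3.85-fold lower in DN3b (-1.95 ± 0.32 on the log2 scale, adjusted p = 0.000326) and 3.81-fold lower in DCKO (-1.93 ± 0.32, 0.000214). Cpeb4, which binds elements in 3′ untranslated regions, was 2.35-fold lower in DN3b than in DN3a (-1.23 ± 0.17, 0.000124) and 2.57-fold higher in DCKO than in DN3b (1.36 ± 0.17, 0.000246). Btg3, a relative of Btg1, read 38.1, 31.6, 37.8 and 37.2 CPM in DCKO and 13.1 to 16.0 in DN3b (1.31 ± 0.12, 1.73e-05).

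Of 15 nonsense-mediated decay genes tested, 6 were higher and 4 lower in each comparison with DN3a, with medians of 0.21 (DN3b) and 0.24 (DCKO). Over all genes tested 27.4% were higher and 25.2% lower in DN3b, and 30.7% and 29.5% in DCKO. The genes named here had the largest called differences over all 5 groups at a mean of at least 1 CPM, and 3 of them, Magohb, Eif4a3 and Magoh, encode parts of the exon junction complex, which marks spliced mRNA. Magohb was 2.48-fold higher in DN3b (1.31 ± 0.20, adjusted p = 0.000189) and 4.84-fold higher in DCKO (2.28 ± 0.20, 4.18e-06) than in DN3a, and 1.95-fold higher in DCKO than in DN3b (0.97 ± 0.19, 0.00437). Eif4a3 (1.22 ± 0.11) and Magoh (1.15 ± 0.17) followed in DN3b. The exosome cofactor gene Mphosph6 (1.74 ± 0.14) and the tail-binding gene Larp4 (1.47 ± 0.16) followed in DCKO against DN3a. Tnks1bp1, which encodes a protein found with CCR4-NOT, was 4.08-fold lower in DCKO than in DN3a (-2.03 ± 0.27, 4.79e-05) and 2.01-fold lower than in DN3b (-1 ± 0.27, 0.0202). Nudt16, a nuclear decapping enzyme, was lower in DN3b (-1.14 ± 0.23) and DCKO (-1.39 ± 0.23) than in DN3a. Angel1 (-1.72 ± 0.23, 0.000299) and Exd2 (-0.46 ± 0.14, 0.035) were the other largest falls of DCKO against DN3b.

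The authors' deposited tables of the same 3 comparisons gave the same sign as the fit used here for all 44 members in each. They call 23 members higher and 5 lower between DN3b and DN3a, without Cnot10 and Upf1. For DCKO against DN3a the authors' deposited table has 28 and 5, and for DCKO against DN3b 3 and 1, in both cases the same members as here.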

How the data were processed

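Total RNA of sorted thymocytes was made into stranded, ribosome-depleted libraries, per the labels' protocols. The build GRCm38 and the tools DESeq2 1.6.3, HTSeq, TopHat2 2.0.12 and Trim Galore are named, per the submitters' processing notes. No source used here gives the annotation release or the counting's strand option, so overlapping genes on opposite strands may share reads: 17 of 44 members overlap exons of another gene, 4 of them over at least 10% of their exon bases. The authors deposited raw counts per Ensembl gene, which every test used. They also deposited a signal per gene, the counts divided by a size factor for each library (checked, not otherwise used). The authors' deposited comparison tables hold p-values, a Wald score and log2 fold changes, and served only for the counts of calls attributed to them.

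Symbols came from GENCODE M21 (42462 of 43629 genes). With R 4.3.3, edgeR 4.0.16 filtered genes (filterByExpr, count minimum 10), scaled libraries by TMM and fitted all 12 libraries with group as the only term (9 residual degrees of freedom). Tests were quasi-likelihood, two-sided, adjusted by Benjamini-Hochberg over 13944 genes and called under 0.05. An SE is the log2 fold change's size divided by the square root of F. Levels are TMM-scaled CPM. Depth was 28479157 to 45975678 counts, and replicates differed well beyond sampling (a chi-square of at least 32.3 per degree of freedom), so spreads over libraries are given. Paralog ratios used counts plus 0.5. The code was tested on simulated data.

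Same-numbered DN3a and DN3b libraries deviated together from their group means (correlations of 0.35 to 0.56, each highest with its own number), so these control numbers pair libraries. DCKO numbers did not pair with DN3a (-0.19 to 0.12) or DN3b (-0.26 to 0.069).

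Members, lists and tests were chosen with earlier results of these data known. Every member is named, with the targeted genes and, from the companion lists, the 3 largest called rises and falls per comparison with a mean of at least 1 CPM. The listed Mpp6 was left out, since its symbol belongs to a different gene in the annotation. Alternatives tried were DESeq2 1.42.0, limma 3.58.1 (voom), upper quartile scaling, no filter or a stricter one (1 CPM in 8 libraries), the compared libraries alone, a replicate block, leaving out each library, leaving out DCKO libraries 1 and 2, a count of 10 added in ratios, paired control libraries for ratios (chosen after seeing the data), and the longest transcript as length.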

Additional observations from a re-analysis of the deposited data

Results flagged for a closer look

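In 7 of 132 groups of 4 libraries (44 members in 3 groups) 1 library stood apart from the rest, with a gap to its nearest neighbour above the 95% critical value of Dixon's test. Chance alone does so in about 1 of 20 groups. Cnot1 read 486 CPM in DN3a library 1, where the nearest library read 601. Cnot7 read 120 CPM in DCKO library 4 against 146 for the nearest, and Exosc10 read 171 CPM in the same library against 141. Ddx6 read 187 CPM in DN3b library 1 against 258, and Exosc4 read 44.1 CPM there against 32.2. In DN3a library 2 Lsm4 read 18.6 CPM against 27.6 for the nearest, and Xrn2 read 232 CPM against 195.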

How the results depend on the processing

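Across 20 alternative settings 23 of the 30 calls between DN3b and DN3a, 22 of 33 between DCKO and DN3a, and 2 of 4 between DCKO and DN3b (Cnot8 and Dcp2) held in every one, and no called difference changed sign. Between DCKO and DN3b the members called numbered 4 (3 higher, 1 lower). DESeq2 called 7 (5 higher, 2 lower), adding Dcp1b, Lsm3 and Exosc9, and without DCKO libraries 1 and 2 the count was 2, with 0 lower. Leaving out 1 library gave 3 to 7 members, 3 to 5 of them higher and 0 to 3 lower. It reached 7 without DN3b library 4, which added Dcp1b, Lsm3 and Exosc9, and without DCKO library 4, which added Dcp1b, Lsm3 and Exosc5. The members called lower in that comparison were 3 with upper quartile scaling, 0 with no filter and 2 with the stricter filter. Between DCKO and DN3a 8 were lower with upper quartile scaling and 3 without DCKO libraries 1 and 2, where the total fell from 33 to 25. The cause of these shifts was not tested. Over all genes DCKO against DN3b gave 2635 calls, 950 without DCKO libraries 1 and 2, 1730 and 1654 without DCKO library 1 or 2, and 1670 and 1601 without DN3b library 2 or 3. Of the paralog ratios 0 of 15 passed after adjustment, also with 10 added to the counts.

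With replicate number as a block DN3b against DN3a gave 33 members in place of 30, adding Edc4, Ddx6 and Xrn2, and it changed no other call there. In DCKO, where the numbers do not pair libraries, the block gave 29 members against DN3a and 2 against DN3b (0 lower), without Cnot7 and Pan2, and 1062 calls over all genes. For the paralog ratios the control pairs were compared by the exact sign-flip test, added after the values were seen. It gave an adjusted p of 0.208 for the 3 ratios that were lower in all 4 control pairs, and 1 for the other 2.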
